A study of Mus musculus with 6 samples.

Results

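Ribosomal protein genes of the cytosolic ribosome were taken from single-cell RNA sequencing of mouse small intestinal organoids. They were chosen by symbol and by total count. The symbol had to start with Rps or Rpl and a number, or be Rplp0, Rplp1, Rplp2 or Rpsa, and the gene needed 100 or more unique molecular identifiers (UMIs, each standing for 1 captured mRNA molecule) summed over all 6 libraries. Of 32285 genes in the files, 23820 had a UMI, 101 carried such a symbol and 95 passed the threshold. The 95 fell into 4 kinds. There were 77 genes for proteins of the ordinary ribosome, called core genes here (31 of the small subunit and 46 of the large subunit). There were 4 paralogs (Rpl7l1, Rps27l, Rpl22l1, Rpl36al) and 4 near-identical copies whose symbols end in -ps or rt (Rps27rt, Rpl9-ps6, Rpl10-ps3, Rpl36a-ps1). The other 10 share only the start of the symbol: they are the ribosomal S6 kinase genes and Rps19bp1, and they were left out of all sums. Rps6ka6, with 479 UMIs, lay just inside the threshold and Rps6kl1, with 64, just outside it. The other symbols that did not pass were Rpl39l with 31, Rpl9-ps1 with 12, Rpl36-ps4 with 3, Rpl3l with 9 and Rpl10l with 1 UMI. The threshold removed no core gene, since each of the 77 core symbols passed.

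The small ribosomal subunit decodes the mRNA and the large subunit joins amino acids, and each is built from ribosomal RNA and one copy of most of its proteins. The acidic proteins encoded by Rplp0, Rplp1 and Rplp2 form the stalk of the large subunit that recruits translation factors. Messenger RNAs of ribosomal proteins begin with a run of pyrimidines, the 5′ TOP motif, through which growth signalling by mTORC1 controls their translation. In the intestinal epithelium, stem cells at the crypt base express Lgr5, their dividing descendants move up the crypt, and cells then mature into absorptive enterocytes or into goblet, Paneth, enteroendocrine and tuft cells.

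The organoids were collected on day 3. Wild-type (WT) organoids, derived from adult mice, were grown without EIPA (labelled DMSO, replicates 1 and 2) or with EIPA (replicates 1 and 2). EIPA is an amiloride derivative that inhibits the sodium-proton exchanger NHE1. The other libraries came from organoids carrying an inducible CRISPR-Cas9 construct with a guide against NHE1, a line taken from single clones and selected with puromycin. They were grown without doxycycline (-Dox, 1 library) or with it (+Dox, 1 library), and the +Dox cells were sorted as live GFP+ cells while those of the other 5 libraries were sorted as live cells. WT and CRISPR organoids therefore differ in line, construct and selection as well as in NHE1, and -Dox and +Dox differ in the sort as well as in doxycycline.

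After barcodes with under 1000 genes or with 20% or more mitochondrial UMIs were removed, 87954 cells remained, 12083 to 18211 per library, with 161670015 to 239368573 UMIs and a median of 11477.5 to 17020 UMIs per cell. The mitochondrial share was 3.76 to 5.72% and called doublets made up 8.60 to 17.2% of the cells. Barcodes shared between libraries were 0.273 to 0.563% of the smaller library. Epcam, an epithelial marker, was at 1491.9 to 1994.91 CPM (UMI counts scaled to the library's total), and summed markers of fibroblasts, immune cells and endothelium reached at most 0.121, 0.708 and 0.46 CPM. Clusters, made without the ribosomal protein genes, were named from marker genes. Lgr5 was at 145 CPM in ISC-like (intestinal stem cell-like) and 12.9 in enterocyte-like cells, Mki67 at 384 in proliferating-like and 67.0 in ISC-like cells, Alpi at 130 in enterocyte-like and 4.2 in ISC-like cells, Muc2 at 1001 in Goblet/Paneth-like, Chga at 1449 in EEC-like (enteroendocrine-like) and Dclk1 at 479 in tuft-like cells. Of the markers of dividing cells, Mcm5 and Mcm6 went the other way from Mki67. They were at 58.9 and 114 CPM in ISC-like and 55.7 and 83.1 in proliferating-like cells. Of the ISC markers, Ascl2, Mex3a and Nkd1 were highest in tuft-like cells (72.5, 30.2 and 9.65 CPM against 54.3, 12.7 and 0.538 in ISC-like). Znrf3 was highest in EEC-like cells (18.9 against 16.5 CPM in ISC-like). The other listed ISC markers were highest in ISC-like cells. These class levels are over all libraries, and most EEC and tuft markers were lower in the CRISPR libraries. Over all kept cells Chga was at 3.60 CPM in -Dox, 15.6 in +Dox and 44.6 to 111 in the WT libraries. Dclk1 was at 0.542, 0.241 and 6.48 to 7.81 CPM. Neurog3, Reg4 and Gnat3 did not follow. Whether EEC-like and tuft-like cells were alike in both lines was not tested. Clusters that held 1546 to 7077 cells per library stayed unnamed.

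Promoter sequence was available for 57 of the 77 core genes, as 250 bases before and 50 bases after the start of the gene in RefSeq (GRCm38.p6). The pyrimidine run CTCTTTC was looked for because it resembles a 5′ TOP start. On the gene's own strand it was present in 13 of 57 core promoters (22.8%) against 4.63% of the promoters of 16312 genes, and on either strand in 18 (31.6%) against 9.11%. The letters CCGGAAGT, an ETS-type site, were present on either strand in 11 (19.3%) against 6.32%, and AAGATGG, a YY1-type site, in 9 (15.8%) against 7.45%. Matches were counted for each word by itself. The following windows of 30 bases, each 5′ to 3′ on the strand of its gene with the match in capitals, show where the pyrimidine run lies in 6 core genes at or shortly after the start. They are Rpl28 (chr7:4792953-4792982, plus strand), Rpl35 (chr2:39005114-39005143, minus strand), Rpl18 (chr7:45718060-45718089, plus strand), Rps26 (chr10:128626484-128626513, minus strand), Rpl6 (chr5:121204521-121204550, plus strand) and Rpl36a (chrX:134585674-134585703, plus strand).
Rpl28: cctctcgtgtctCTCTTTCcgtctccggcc
Rpl35: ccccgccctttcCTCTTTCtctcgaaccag
Rpl18: tctcgcaggccgCTCTTTCcccgcccactc
Rps26: agccgccggatcCTCTTTCgagtcttggct
Rpl6: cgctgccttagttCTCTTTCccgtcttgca
Rpl36a: gctctagcctctCTCTTTCcgagctgctag

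Counted from 0 at the annotated start base, the run began at base 0 in Rpl28 and Rpl35, at base 1 in Rpl18 and at base 5 in Rps26, and at bases 33 and 32 in Rpl6 and Rpl36a. In Rpl11, Rpl5 and Rps15a, whose windows are not shown, it began before the start, at bases -65, -20 and -13. Windows around the ETS-type word are shown for Rpl31 (chr1:39367848-39367877, plus strand), one of the core genes with the fewest UMIs, for Rpl41 (chr10:128549206-128549235, minus strand), one of those with the most, and for Rps18 (chr17:33955804-33955833, minus strand), whose EIPA values are given later. A match is a description of letters and does not show that a factor binds there.
Rpl31: ctccccgtgacCCGGAAGTtgtacggctac
Rpl41: tagtaaggcagCCGGAAGTcgctgtctcga
Rps18: agaaggccgaaCCGGAAGTtatagctccgg

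The core genes together made up 23.0 to 28.3% of all UMIs in a library. The share was 27.8 and 28.3% in the -EIPA libraries, 27.8 and 27.2% in the +EIPA libraries, 25.8% in -Dox and 23.0% in +Dox. Counting intervals on these shares are narrow (95% Wilson interval 23.00 to 23.01% in +Dox) and, like all such intervals here, cover counting error only. Of the 100 genes with the most UMIs in a library, 62 to 69 were core genes. The kit counts 1 end per mRNA molecule, so a CPM compares molecules between genes without scaling to length. Genes with a near-identical copy are less certain here, since how reads were divided between gene and copy is not known.

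Mean levels of the 77 core genes over the 6 libraries had a median of 3398 CPM, and the lowest was at 1248 CPM. The 10 highest genes held 21.9% of the core UMIs, so no small set of genes carried the sum. Among the highest was Rpl13 (ENSMUSG00000000740, GRCm38 chr8:123102350-123105244, plus strand), a large-subunit protein, at 6363 ± 758 CPM (SD, n = 6), followed by Rpl41 at 6002 ± 636, Rps12 at 5765 ± 711 and Rps24 at 5670 ± 565. From Rpl13 to Rps24, neighbours in this order differed by less than their SD over libraries. Lowest were Rpl4 at 1248 ± 128, Rpl31 at 1301 ± 105, Rpl35 at 1518 ± 255, Rpl10 at 1689 ± 297 and Rpl36a at 1741 ± 211 CPM, and each of these steps was also smaller than the larger SD of the pair. The genes lie on 19 chromosomes, 14 of them on chromosome 7 and 4 on X.

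The question of the class comparison was where along the lineage the ribosomal protein genes take the largest part of the mRNA. It was highest in ISC-like cells in each of the 6 libraries. The core share in ISC-like cells was 33.5 and 34.1% in -EIPA, 34.87 and 34.98% in +EIPA, 31.0% in -Dox and 31.8% in +Dox. Proliferating-like cells held 28.9 and 28.97%, 31.1 and 31.3%, 26.9% and 28.7% in the same order. Tuft-like cells held 24.5 to 26.7%, Goblet/Paneth-like cells 22.1 to 26.8% and EEC-like cells 22.0 to 23.7%. Enterocyte-like cells were at 21.7 and 23.6% in -EIPA, 19.5 and 17.6% in +EIPA, 19.1% in -Dox and 12.3% in +Dox, so the range from stem to enterocyte class was wider in +EIPA and +Dox than in -EIPA and -Dox.

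**Figure D1:**
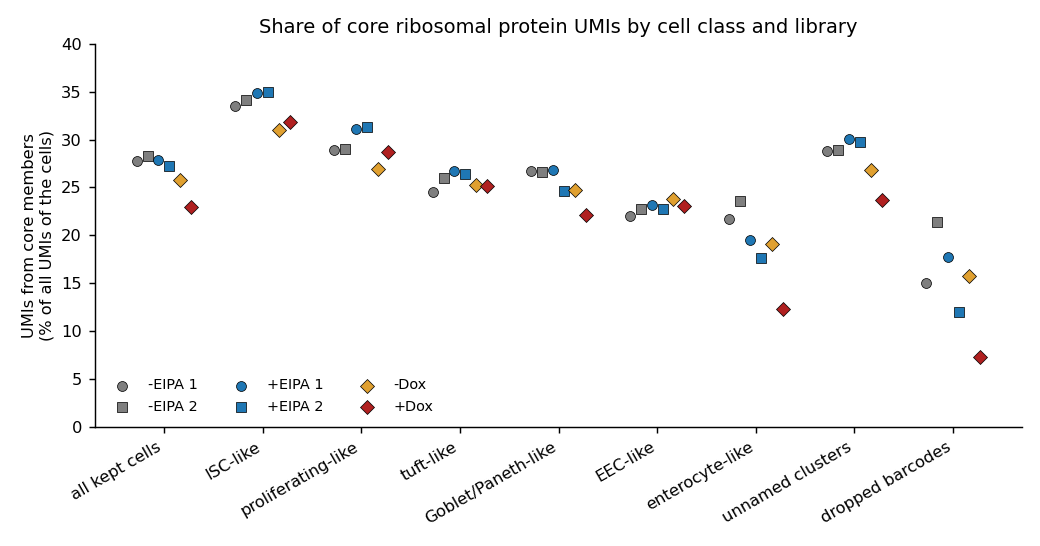
Share of UMIs from the 77 core ribosomal protein genes (y axis, percent) in each marker-named class (x axis), in all kept cells, in unnamed clusters and in the removed barcodes, with 1 point for each of the 6 libraries. ISC-like cells sit between 31.0 and 34.98% and enterocyte-like cells between 12.3 and 23.6%.

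Depth per cell was not the same in all classes, so shares were also taken in cells of 8000 to 16000 UMIs. Enterocyte-like cells then held 21.4, 22.7, 18.3, 15.1, 17.9 and 8.35% (-EIPA 1 and 2, +EIPA 1 and 2, -Dox, +Dox) and ISC-like cells 33.3, 34.6, 34.9, 35.6, 31.3 and 33.2%, and these classes still did not overlap. EEC-like and tuft-like cells were shallower, with library medians of 5098.5 to 6752 and 5364.5 to 9357 UMIs. Shares of the other classes in this window are not given, so their order is not checked for depth. Within the enterocyte-like class the clusters differed. Cluster 9 held 11.9, 15.0, 12.5, 10.6, 10.49 and 7.56% and cluster 17 held 27.0, 28.2, 27.0, 26.7, 24.5 and 22.1% in the same library order. Barcodes removed by the filter, which had mitochondrial shares of 17.3 to 36.1%, held 7.26 to 21.3% core UMIs. Free RNA of lysed cells can add core UMIs to any droplet, and its part in the class levels was not tested.

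Gene by gene, the direction was the same for the whole set. Each of the 77 core genes was lower than in ISC-like cells in 6 of 6 libraries, whichever of the other 5 classes was compared. Among all genes measured at 10 CPM or more, the share lower in 6 of 6 libraries was 21.3% for proliferating-like, 50.8% for enterocyte-like, 45.2% for Goblet/Paneth-like, 19.5% for EEC-like and 15.3% for tuft-like cells. Core genes are parts of 1 sum in CPM, and cells of 1 library are not replicates, so these counts carry no test. They were not matched for depth per cell either. The median log2 ratio to ISC-like cells was -0.19 for proliferating-like (all genes 0.04), -0.85 for enterocyte-like (all genes -0.23), -0.41 for Goblet/Paneth-like (all genes -0.10), -0.53 for EEC-like (all genes 0.25) and -0.36 for tuft-like cells (all genes 0.13).

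In enterocyte-like cells the ratios ran from -1.21 to -0.57. The lowest was that of Rpl12 (ENSMUSG00000038900, chr2:32961559-32965345, plus strand), a protein at the base of the stalk. Rpl12 was at 4986, 4078, 5022, 4033, 4042 and 3966 CPM in ISC-like cells (-EIPA 1 and 2, +EIPA 1 and 2, -Dox, +Dox) and at 2579, 2255, 2142, 1564, 1985 and 1110 CPM in enterocyte-like cells. Its highest enterocyte-like value lay below its lowest ISC-like value, and the log2 ratio was -1.21 ± 0.36 (SD, n = 6 libraries). Rpl3, a large-subunit protein near the peptidyl transferase centre, followed at -1.17 ± 0.39, and Rpsa stood at -1.08 ± 0.38 and Rps2 at -1.04 ± 0.36. At the other end stood Rpl38 (ENSMUSG00000057322, chr11:114668524-114672331, plus strand), one of the smallest ribosomal proteins. Rpl38 was at 3330, 3319, 3592, 3989, 3374 and 3041 CPM in ISC-like and at 2480, 2491, 2410, 2509, 2397 and 1674 CPM in enterocyte-like cells. These ranges did not overlap either, and its ratio of -0.57 ± 0.17 was the smallest drop in the set. Rps29 was at -0.62, Rpl9 at -0.63, Rpl10 at -0.65 and Rps14 at -0.65.

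**Figure D2:**
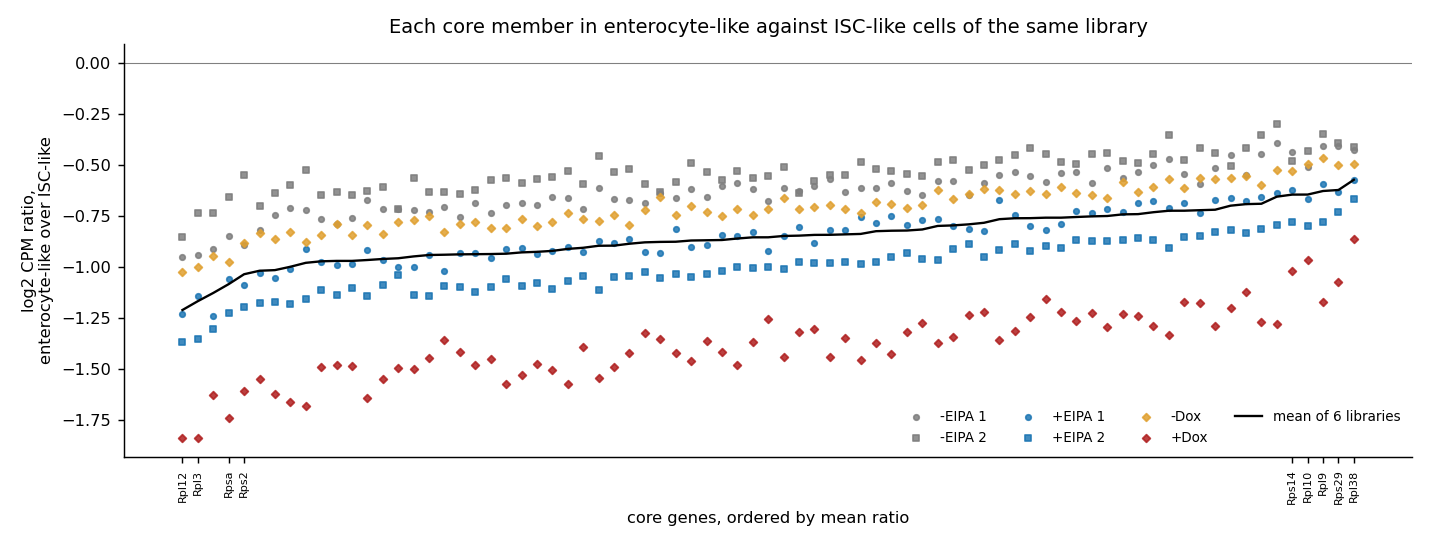
Log2 ratio of CPM in enterocyte-like to ISC-like cells for the 77 core genes, ordered by their mean (black line), with 1 point per library and names for some of the genes described in the text. Means run from -1.21 (Rpl12) to -0.57 (Rpl38) and all points lie below 0.

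The order of the genes was not the same in the secretory classes. In Goblet/Paneth-like cells low ratios to ISC-like cells were those of Rps26 (-0.62) and Rps18 (-0.57) and the highest those of Rpl10 (-0.12), Rpl41 (-0.13) and Rps24 (-0.22). In EEC-like cells Rpl12 (-0.86), Rps12 (-0.74) and Rpl36a (-0.73) were lowest and Rpl37a (-0.31), Rpl26 (-0.37) and Rps14 (-0.39) highest. In tuft-like cells, which number 62 to 427 per library, Rpl12 (-0.66), Rps12 (-0.59) and Rps2 (-0.56) were lowest and Rps27 (-0.17), Rpl27 (-0.26) and Rpl37a (-0.27) highest. Rpl12 was thus lowest in 3 of the 5 classes compared.

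Among the paralogs, Rps27l and Rpl36al kept more of their ISC-like level in enterocyte-like cells than the core genes did. Rps27l encodes a p53-inducible relative of Rps27, and its log2 ratio was -0.29 ± 0.18 (SD, n = 6), lower in 5 of 6 libraries. Rpl36al encodes a protein almost identical to that of Rpl36a and stood at -0.23 ± 0.23, lower in 5 of 6. Relative to the summed core UMIs, Rps27l was 0.56 and Rpl36al 0.61 higher on the log2 scale in enterocyte-like cells, in 6 of 6 libraries. This was not particular to that class. The values were 0.40 and 0.36 in Goblet/Paneth-like, 0.27 and 0.26 in proliferating-like and 0.25 and 0.31 in EEC-like cells, each in 6 of 6 libraries. In tuft-like cells they were 0.09 and 0.22, in 5 of 6. Rpl36al made up 36.5, 33.2, 35.7, 32.3, 33.7 and 35.3% of the UMIs of Rpl36al and Rpl36a together in ISC-like cells and 48.0, 44.1, 49.2, 45.7, 43.8 and 49.5% in enterocyte-like cells, with no overlap. Rps27l made up 23.0, 21.1, 23.9, 21.5, 24.4 and 26.2% of its pair with Rps27 in ISC-like cells and 25.4, 27.6, 28.7, 29.3, 26.2 and 36.3% in enterocyte-like cells. It was higher in enterocyte-like cells within every library, although the lowest values there overlapped the highest ISC-like ones. Rpl22l1, at -0.79, and Rpl7l1, at -0.59, lay within the range of the core genes.

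The EIPA comparison asked how the ribosomal protein genes differed when NHE1 was inhibited in WT organoids. It rests on 2 libraries per group. The study describes them as biological replicates of the organoid preparation. Same-numbered libraries of the -EIPA and +EIPA groups come from the same experiment, and the tests without a replicate block ignore that pairing. Their p-values set the treatment difference against a spread that includes differences between experiments. Over all kept cells the core share was 28.1 ± 0.368% (SD, n = 2) in -EIPA and 27.5 ± 0.431% (SD, n = 2) in +EIPA, with overlapping libraries, a difference of -0.521 percentage points (two-sided exact permutation test, p = 0.667, where 2 against 2 cannot go below 0.33). The median core share per cell went the other way, at 28.4 and 28.5% in -EIPA and 29.4 and 29.1% in +EIPA. No core gene was called in edgeR's quasi-likelihood test on counts summed per library, in which 0 of 15890 genes passed an adjusted p of 0.05 (0%). The lack of calls does not show a lack of change. At an unadjusted p under 0.05 there were 1601 genes, 0 of them core. DESeq2 called 587 genes, 0 of them core. The median log2 difference of the core genes was 0.03 after TMM scaling and -0.05 with library sizes alone, so no direction is given. Both +EIPA libraries lay above both -EIPA libraries for 2 core genes and below for 14, against 13.5% and 33.6% of all genes.

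The 2 genes that were higher were Rps28 and Rpl38. Rps28, a small-subunit protein, was at 3046 and 2805 CPM in -EIPA and 3175 and 3255 CPM in +EIPA, a log2 difference of 0.22 (SE 0.103, edgeR adjusted p = 0.586). Rpl38 was at 2882 and 2834 against 3008 and 3280 CPM, a log2 difference of 0.22 (SE 0.111, edgeR adjusted p = 0.617). Neither passed the test. Among those that were lower, Rpl11, which binds MDM2 when ribosome assembly is disturbed, was at 3653 and 3879 against 3555 and 3356 CPM, a log2 difference of -0.04 (edgeR adjusted p = 0.962). Rps3a1 was at -0.04 and Rpl10, Rps7 and Rpl13 at -0.03. Of these 5, the values of Rpl11 (0.01), Rpl10 (0.05) and Rps7 (0.04) turned positive without -EIPA replicate 2, that of Rpl10 (0.02) also without +EIPA replicate 1 and that of Rpl13 (0.004) without +EIPA replicate 2.

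Split by class, most core genes had higher values with EIPA in ISC-like and proliferating-like cells and lower values in enterocyte-like cells, and none of these differences passed the adjusted test without pairing. In ISC-like cells the core share was 33.8 ± 0.416% in -EIPA and 34.9 ± 0.0840% in +EIPA (SD, n = 2 each), a difference of 1.11 points (exact permutation p = 0.33), which shrank to 0.136 points with clusters cut at a finer Leiden resolution of 1.2 (33.70 and 34.02% against 34.25 and 33.75%, which overlap). In edgeR, 3 of 11767 genes were called (0.0255%), 0 of them core, and DESeq2 called 22, 0 of them core. At an unadjusted p under 0.05 there were 570 genes, 2 of them core. After TMM scaling the fitted log2 difference was positive for 75 of 77 core genes, against 49.4% of all genes, with a median of 0.09 (0.03 with library sizes alone). That count depends on the scaling. In CPM more core genes had a lower mean in +EIPA, among them Rpl13 (8436 and 8339 in -EIPA against 8517 and 8004 in +EIPA). Both +EIPA libraries lay above both -EIPA libraries for 11 core genes and below for 1, against 9.27% and 26.9% of all genes. Replicate numbers mark experiments here, and with that number as a block 15 core genes were called, all higher, against 4.08% of all genes called higher. That fit has 1 residual degree of freedom.

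Genes of both subunits were among those with the largest differences in ISC-like cells. Rpl38 was at 3330 and 3319 CPM in -EIPA and 3592 and 3989 CPM in +EIPA, a log2 difference of 0.25 (SE 0.0964, edgeR adjusted p = 0.969, and 0.00110 with the replicate block). Rps28 was at 3910 and 3606 against 4137 and 4313 CPM, 0.23 on the log2 scale (SE 0.0898, edgeR adjusted p = 0.969, and 0.00319 with the block). Both were picked from genes whose +EIPA and -EIPA libraries did not overlap, so their lack of overlap adds no support. Rpl35 (0.18) and Rpl31 (0.18) had edgeR adjusted p-values of 0.0186 and 0.0269 with the block. Rps7 was the 1 core gene lower in both +EIPA libraries, at 4362 and 4754 against 4302 and 4343 CPM, a log2 difference of -0.02. That value turned positive without -EIPA replicate 2 (0.06), without +EIPA replicate 1 (0.002) and with 30 principal components (0.04). Of the paralogs, Rpl22l1 was at 1237 and 1211 against 1479 and 1445 CPM, 0.32 on the log2 scale (SE 0.0860, edgeR adjusted p = 0.955, and 7.57e-06 with the block).

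In proliferating-like cells the core share was 28.9 ± 0.0722% in -EIPA and 31.2 ± 0.147% in +EIPA (SD, n = 2 each), a difference of 2.32 points (exact permutation p = 0.33). All 77 core genes had a positive fitted difference, against 49.3% of all genes, with a median log2 value of 0.14 (0.09 with library sizes alone), and both +EIPA libraries lay above both -EIPA libraries for 37 and below for 0, against 9.24% and 26.5% of all genes. The edgeR test called 0 of 13269 genes (0%). At an unadjusted p under 0.05 it had 651 genes, 5 of them core, and DESeq2 called 85, 0 of them core. With the replicate block 48 core genes were called, all higher, against 6.59% of all genes. That fit has 1 residual degree of freedom and was not tested on simulated data. Its small p-values below rest mostly on spread estimated across genes, not on replicates of the gene itself. Rps21, a small-subunit protein, was at 2891 and 3149 CPM in -EIPA and 3335 and 4120 CPM in +EIPA, a log2 difference of 0.36 (SE 0.143, edgeR adjusted p = 1.00, and 1.74e-11 with the block). The 2 +EIPA libraries differed from each other by more than the group means did. Rps28 was at 3063 and 2794 against 3421 and 3606 CPM, 0.32 on the log2 scale (SE 0.0915, edgeR adjusted p = 0.797, and 1.71e-09 with the block). Rpl38 and Rpl37a stood at 0.30 and Rps29 at 0.28. Their edgeR adjusted p-values were 0.926, 1.00 and 0.996, and 4.24e-08, 9.51e-08 and 2.14e-07 with the block.

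In enterocyte-like cells the core share was 22.6 ± 1.35% in -EIPA and 18.6 ± 1.31% in +EIPA (SD, n = 2 each), a difference of -4.06 points (exact permutation p = 0.33). The fitted difference was negative for 74 of 77 core genes, against 54.4% of all genes, with a median of -0.21 on the log2 scale against -0.03 over all genes, and -0.31 against -0.12 with library sizes alone. Both +EIPA libraries lay below both -EIPA libraries for 64 core genes and above for 0, against 34.5% and 14.6% of all genes. The edgeR test called 0 of 12368 genes (0%). It had 1335 genes at an unadjusted p under 0.05, 0 of them core, and DESeq2 called 267, 0 of them core. With the replicate block 0 core genes were called, so the class with the largest shift in share was not the one with the most calls.

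Rpl3 was at 1821 and 1967 CPM in -EIPA and 1575 and 1198 CPM in +EIPA enterocyte-like cells, a log2 difference of -0.36 (SE 0.180, edgeR adjusted p = 0.525). Rps18 was at 3803 and 4467 against 3239 and 2836 CPM, -0.35 on the log2 scale (SE 0.168, edgeR adjusted p = 0.511). Rps3a1 was at -0.32, Rpl13 at -0.32 and Rpl11 at -0.31. These genes were picked from those whose libraries did not overlap between the 2 groups, so their lack of overlap adds no support. The make-up of the class moved with the comparison. Cluster 9, the cluster with the lowest core share, held 234 and 152 cells in -EIPA and 630 and 675 in +EIPA of 1650, 1463, 2544 and 2691 enterocyte-like cells. The class itself made up 13.1 and 8.03% of kept cells in -EIPA and 19.3 and 18.9% in +EIPA. Within cluster 9 the core share was 11.9 and 15.0% against 12.5 and 10.6%, which overlap, and within cluster 2, the largest, 22.0 and 23.3% against 19.5 and 17.8%, which do not.

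**Figure D3:**
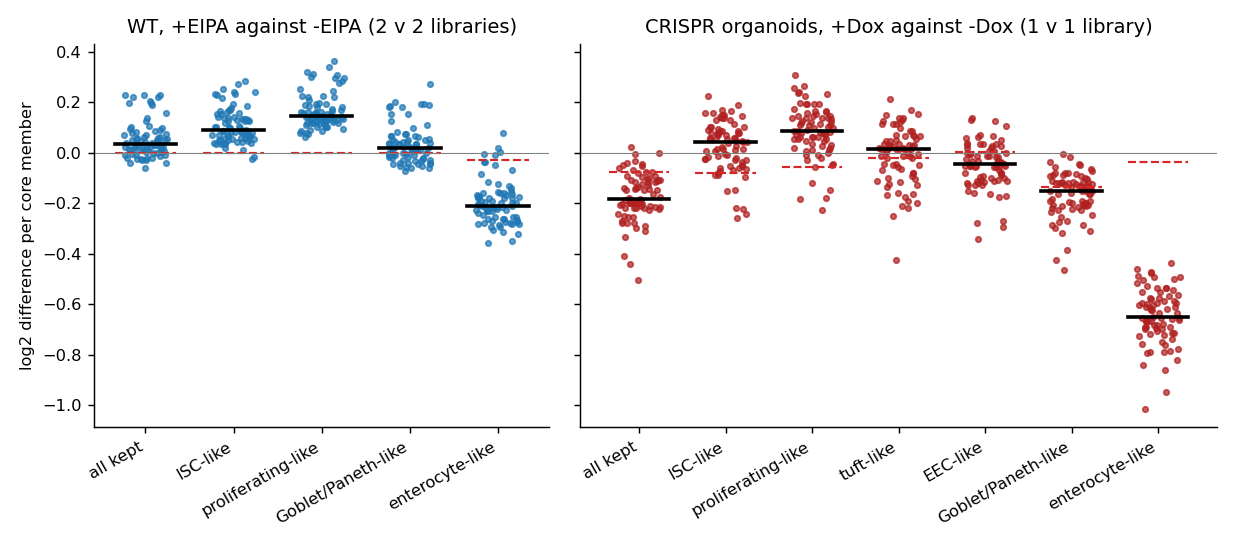
Log2 differences of the 77 core genes by class, +EIPA minus -EIPA (left, fitted, 2 against 2 libraries) and +Dox minus -Dox (right, 1 against 1), with 1 point per gene, the core median as a black line and the median of all genes as a dashed line. EIPA medians are 0.09 in ISC-like, 0.14 in proliferating-like, 0.02 in Goblet/Paneth-like (-0.07 with library sizes alone) and -0.21 in enterocyte-like cells, and the Dox median of enterocyte-like cells is -0.65.

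The difference between enterocyte-like and ISC-like cells in their EIPA change was tested itself, as a class by treatment term with the library as a block. It was negative for 77 of 77 core genes, against 50.5% of all genes, with a median of -0.29 on the log2 scale (all genes -0.004). The edgeR test called 16 of 12859 genes (0.124%), 0 of them core. At an unadjusted p under 0.05, 60 of 77 core genes were lower, against 6.52% of all genes. Rps18, named after its values were seen, stood at -0.39 (SE 0.111, edgeR adjusted p = 0.181). The count of called core genes, all lower, moved with the setting, and so did that of all genes called lower. It was 11 with called doublets removed, against 2.89% of all genes, and 1 with no filter on low counts, against 0.342%. It was 7 without -EIPA replicate 1, against 10.5% of all genes, and 15 without +EIPA replicate 1, against 0.159%, so the 7 are no larger a share than that of all genes. Without replicate 2 of either group it was 0. Both +EIPA libraries lay above both -EIPA libraries in ISC-like and below both in enterocyte-like cells for 9 core genes, against 2.36% of all genes tested in both classes. For proliferating-like in place of ISC-like cells there were 32, against 1.91%.

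Goblet/Paneth-like cells had overlapping core shares, 26.7 ± 0.0716% in -EIPA and 25.7 ± 1.55% in +EIPA (SD, n = 2 each, exact permutation p = 1). The edgeR test called 32 of 12647 genes (0.253%), 0 of them core, and DESeq2 called 106, 0 of them core. At an unadjusted p under 0.05 there were 814 genes, 0 of them core. Both +EIPA libraries lay above both -EIPA libraries for 2 core genes and below for 13, against 8.91% and 28.9% of all genes. The median was 0.02, or -0.07 with library sizes alone, so no direction is given. Rpl41, whose product is the shortest ribosomal protein, was at 5669 and 6096 against 6150 and 7149 CPM, 0.27 on the log2 scale (SE 0.168, edgeR adjusted p = 0.911). Rpl38 was at 2905 and 2783 against 3028 and 3074 CPM, 0.19 on the log2 scale (SE 0.130, edgeR adjusted p = 0.942). Of the 13 lower genes, Rpl10 was at 2135 and 2284 against 2009 and 1968 CPM, -0.06 on the log2 scale (SE 0.127, edgeR adjusted p = 0.995). Rpl7a stood at -0.07, Rps7 at -0.06, and Rps18 and Rps3a1 at -0.05. None of these passed the test, and the log2 values of Rpl10, Rps7 and Rps18 turned positive without -EIPA replicate 2. The core share of EEC-like cells was 22.4 ± 0.506% against 23.0 ± 0.318% (SD, n = 2 each, exact permutation p = 0.667) and that of tuft-like cells 25.2 ± 1.00% against 26.6 ± 0.230% (SD, n = 2 each, exact permutation p = 0.33). The EEC-like difference of 0.569 points became -1.26 in cells of 8000 to 16000 UMIs and -0.216 with called doublets removed, and the tuft-like difference of 1.33 points became -0.0691 with called doublets removed.

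Rps28 and Rpl38 appeared among the genes with the largest positive EIPA differences in several classes, and both have short transcripts. Across the 77 core genes, Spearman's correlation of the fitted EIPA difference with the annotated transcript length (345 to 5179 bases, GENCODE on GRCm38) was -0.36 over all cells, -0.44 in ISC-like, -0.34 in proliferating-like, -0.37 in enterocyte-like and -0.33 in Goblet/Paneth-like cells. In proliferating-like cells the 26 shortest genes had a median log2 difference of 0.21 and the 26 longest 0.14. The same correlation was 0.28 for +Dox minus -Dox over all cells, with medians of -0.21 for the 26 shortest and -0.16 for the 26 longest. It was -0.17 for -EIPA replicate 2 minus -EIPA replicate 1, libraries of the same treatment, with medians of 0.06 and -0.01. The genes share libraries and depth, so this is a description with no p.

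Other parts of the translation machinery, taken as fixed lists, are given beside the core genes, and edgeR called 0 of their members in any of the 5 comparisons. Translation factors and other TOP mRNAs, a list of 17, had median log2 differences of 0.03 in ISC-like, 0.10 in proliferating-like and -0.22 in enterocyte-like cells, with 16 of 17 positive in proliferating-like and 16 of 17 negative in enterocyte-like cells (49.3% and 54.4% of all genes). Ribosome assembly factors, a list of 23, had medians of 0.09, 0.05 and -0.36 in the same classes, and in enterocyte-like cells 23 of 23 were negative and 5 had an unadjusted p under 0.05, against 3.99% of all genes lower at that p. The 78 genes for mitochondrial ribosomal proteins, which serve the separate ribosome of the mitochondrion, had medians of 0.09, 0.009 and -0.07. By share of UMIs, assembly factors took 0.324 to 0.381% in ISC-like and 0.101 to 0.166% in enterocyte-like cells.

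The Dox comparison has 1 library per group, so it has no replicate check and no test. A difference of 1.2-fold or more is counted, and the 95% Poisson intervals given cover counting error only. Over all cells, 11 of 77 core genes were at least 1.2-fold lower in +Dox, against 20.9% of all genes, and 0 were higher, against 13.1%. The median log2 difference was -0.18 (all genes -0.08). The mix of classes differed as well. Enterocyte-like cells made up 14.6% of kept cells in -Dox and 28.0% in +Dox, ISC-like cells 8.68 and 19.2%, and unnamed clusters 40.2 and 12.8%. The part of this mix in the all-cell values was not tested. Rpl35 was at 1465 CPM in -Dox (1460 to 1470) and 1033 CPM in +Dox (1029 to 1038), -0.50 on the log2 scale. Rpl6, a large-subunit protein, was at 4816 and 3550 CPM (-0.44), Rps29 at 4945 and 3722 CPM (-0.41), Rpl10 at 1500 and 1190 CPM (-0.33) and Rps21 at 3285 and 2647 CPM (-0.31). Rps20, at 4513 and 4586 CPM, stood highest at 0.02, and Rpl9 (0.0004), Rps7 (-0.03) and Rps3 (-0.04) were also among the highest.

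By class, the lower core level in +Dox was widest in enterocyte-like cells. There 77 of 77 core genes were at least 1.2-fold lower, against 24.4% of all genes, with a median of -0.65 on the log2 scale (all genes -0.04) and a range of -1.01 to -0.44. Rpl35 was at 1058 CPM in -Dox (1047 to 1068) and 523 CPM in +Dox (517 to 529). Rpl6 fell in level from 3408 to 1767 CPM between the libraries, and Rps21 stood at 2331 and 1282, Rpl12 at 1985 and 1110 and Rpl14 at 1504 and 852 CPM. The smallest differences were those of Rps14, at 3020 and 2229 CPM, and Rps20, at 3324 and 2412 CPM. Cluster 9 held 277 of 2565 enterocyte-like cells in -Dox and 710 of 3389 in +Dox, and its core share was 10.49 and 7.56%. In cluster 2 the share was 18.5 and 11.5%. The mitochondrial share of enterocyte-like cells was 5.86 and 7.72%, and the median core share per cell 19.2 and 8.0%.

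Other classes showed small differences. In ISC-like cells 0 core genes were 1.2-fold lower, against 17.0% of all genes, with a median of 0.04. In proliferating-like cells 0 were lower, against 10.1%, and 2 were higher, against 6.63%, with a median of 0.09. Those 2 were Rps20, at 4730 CPM in -Dox and 5845 CPM in +Dox, and Rpl9, at 4519 and 5426 CPM. In Goblet/Paneth-like cells 10 were lower, against 24.6%, with a median of -0.15. In EEC-like cells 4 were lower, against 12.7%, with a median of -0.05, and in tuft-like cells 1 was lower, against 28.3%, with a median of 0.01. Different clusters hold these classes in the 2 libraries: of the ISC-like cells, cluster 10 held 2234 of 2323 in +Dox and cluster 5 held 1488 of 1528 in -Dox, and cluster 13 held 1651 of 1979 proliferating-like cells in +Dox. Rpl35 had the lowest log2 difference in every class, -0.26 in ISC-like, -0.23 in proliferating-like, -0.46 in Goblet/Paneth-like, -0.43 in tuft-like and -0.34 in EEC-like cells.

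The 4 near-identical copies split the libraries in another way. Rps27rt (ENSMUSG00000050621, chr9:114982366-114982739, minus strand) was at 37.7 CPM in -EIPA 1, 165 in -EIPA 2, 39.7 in +EIPA 1, 191 in +EIPA 2, 166 in -Dox and 184 in +Dox. Rpl9-ps6 was at 28.2, 131, 28.8, 124, 170 and 199 CPM and Rpl10-ps3 at 19.6, 109, 19.1, 105, 89.7 and 93.2 CPM in the same order. Rpl36a-ps1 was at 16.3, 34.4, 16.9, 35.7, 33.9 and 32.3 CPM. In all 4 copies both replicate 1 libraries of the WT organoids were low and the other 4 libraries were high, whatever the treatment. Summed, the copies took 0.010% of UMIs in each replicate 1 library and 0.044 to 0.051% elsewhere.

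The parent genes and the paralogs did not split by as much, but 3 of the 4 parent genes and the paralog Rps27l were also lowest in both replicate 1 libraries. Rpl9 was at 2846 and 2845 CPM there and 3348 to 4454 elsewhere, and Rpl36a at 1495 and 1538 there and 1664 to 2000.4 elsewhere. Rpl10, the remaining parent gene, was at 1840 and 1774 there and lower in the CRISPR libraries. Rps27 itself was at 1984, 2521, 2098, 2865, 2560 and 2208 CPM, so that Rps27rt made up 1.87, 6.15, 1.86, 6.27, 6.08 and 7.70% of the pair. Rpl36al was at 1184, 1354, 1162, 1283, 1194 and 1080 CPM, Rpl22l1 at 1142, 1214, 1219, 1239, 1091 and 954 CPM, Rps27l at 765, 960, 800, 992, 982 and 923 CPM and Rpl7l1 at 108, 110, 100, 91.9, 103 and 110 CPM. A copy is nearly identical to its parent gene, so how reads were divided between them is uncertain. This uncertainty covers the level of each copy and those of Rps27, Rpl9, Rpl10 and Rpl36a.

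**Figure D4:**
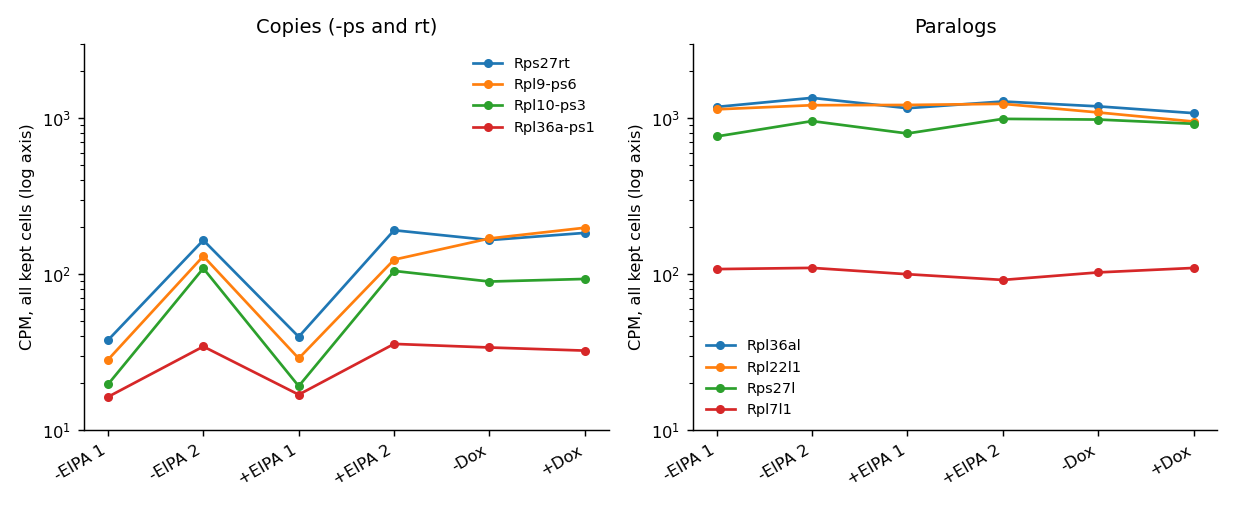
Levels (CPM, log axis) of the 4 copies and 4 paralogs in each of the 6 libraries. The copies are low in -EIPA 1 and +EIPA 1 (Rps27rt at 37.7 and 39.7 CPM against 165 to 191 elsewhere), and the paralogs differ by less, with Rps27l at 765 and 800 CPM there and 923 to 992 elsewhere.

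The make-up of the core set differed between the WT and the CRISPR libraries. This was noticed in the values and is given without a test, and line, construct and library cannot be told apart. Per 1000 core UMIs, both CRISPR libraries lay above all 4 WT libraries for 13 core genes and below all 4 for 25. In CPM, where the lower core sum of the CRISPR libraries enters, the counts were 6 and 48, against 29.2% and 10.7% of all 7488 genes at a mean of 10 CPM or more. Rpl5, which with Rpl11 and 5S RNA forms a complex that binds MDM2, took 8.39, 6.62, 7.86 and 6.35 per 1000 in the WT libraries (-EIPA 1 and 2, +EIPA 1 and 2), 12.4 in -Dox and 11.9 in +Dox. Rpl9 took 10.2, 12.8, 10.2 and 12.3 in WT and 17.3 and 19.4 in CRISPR libraries, and Rpl21 11.4, 12.3, 11.3 and 12.02 against 17.3 and 17.9. Rpl30 took 13.6, 14.7, 13.8 and 14.6 against 20.01 and 20.98. The CRISPR libraries were outside the WT range for each of these 4 genes, with log2 ratios of 0.73, 0.69, 0.58 and 0.53.

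On the low side, Rpl10 took 6.62, 7.15, 6.37 and 6.61 per 1000 in WT and 5.82 and 5.17 in CRISPR libraries, a log2 ratio of -0.28. Rpsa took 16.5, 14.5, 16.2 and 13.5 against 12.7 and 12.4, a ratio of -0.27, and Rpl10a stood at -0.23. The small subunit's part of the core UMIs was 44.4, 44.4, 44.6 and 44.1% in WT and 41.9 and 42.3% in CRISPR libraries. Between the WT experiments, replicate 2 lay above replicate 1 in both treatments for 24 core genes and below for 32 per 1000 core UMIs. In CPM, and counting only genes with both replicate 2 libraries above or below both replicate 1 libraries, there were 22 and 30. The shares of all genes by that rule were 15.1% and 24.3%. Per 1000, Rps27 was among the former and Rpl6 (14.6 and 14.3 against 10.8 and 11.2 per 1000) among the latter.

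**Figure D5:**
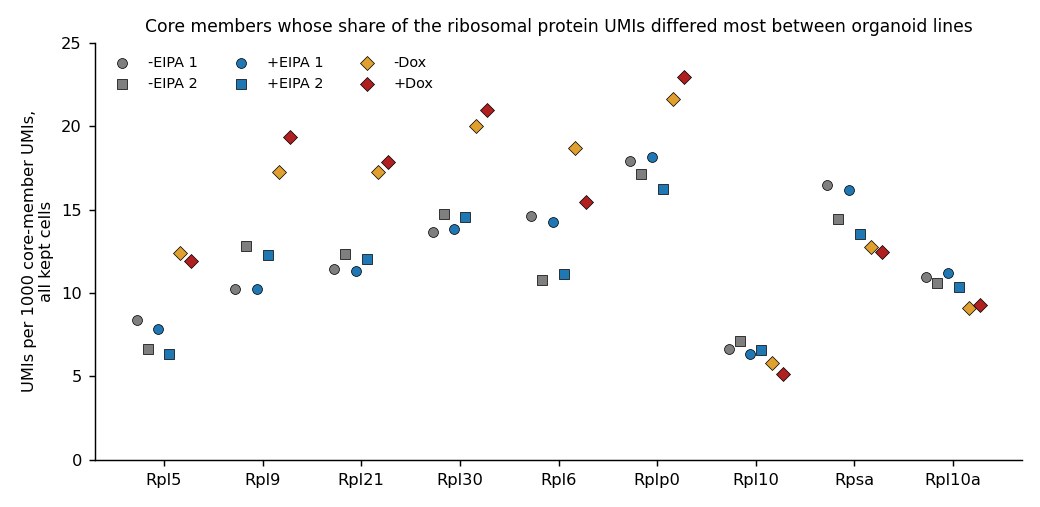
Share of single core genes in the core UMIs (per 1000) in the 4 WT and 2 CRISPR libraries, for genes chosen after their values were seen. Rpl5 lies at 6.35 to 8.39 in WT and at 11.9 and 12.4 in CRISPR libraries.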

How the data were processed

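Organoid cells were profiled with 10x 3′ chemistry, and the authors deposited UMI counts per gene and barcode made with Cell Ranger 6.1.2 on mm10 (GRCm38), 1 raw count matrix per library. Barcodes with 1000 genes or more and under 20% mitochondrial UMIs were kept. Cells were clustered on counts scaled and centred within each library (3000 genes, 45 principal components, 20 neighbours, Leiden resolution 0.8 in igraph). The ribosomal protein genes, the other listed translation genes and mitochondrial genes were left out of the clustering. Clusters were named from marker lists. Doublets were called with Scrublet in scanpy and kept, with their removal as an alternative. Counts were summed per library and class and tested with edgeR 4.0.16 (quasi-likelihood, TMM, filterByExpr, Benjamini-Hochberg over all genes tested, threshold 0.05, R 4.3.3); all 77 core genes passed the filter in each comparison. DESeq2 1.42.0, other scalings, filters, cell sets and leaving out a library were alternatives. The edgeR fits without pairing and the class by treatment fit were tested on simulated data that held no experiment effect. The replicate block fit and DESeq2 were not tested in this way. Shares were compared with exact permutation tests (scipy 1.17.1). The members and lists were chosen with earlier results of these data known.

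Named genes were the 5 highest and 5 lowest core genes by level or class ratio, the paralogs and copies, and up to 5 per direction with the largest difference among those whose +EIPA and -EIPA libraries did not overlap. Class ratios, promoter matches, transcript length and the make-up of the core set carry no test. Same-numbered WT replicates come from the same experiment in the study's source data. Their deviations from the group means correlated at 0.736 over all cells, 0.598 in ISC-like, 0.797 in proliferating-like, 0.467 in enterocyte-like and 0.578 in Goblet/Paneth-like cells, so replicate block values are given beside the counts and named genes whose call they changed. Some genes and the checks that need them are not reported here.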

Additional observations from a re-analysis of the deposited data

Results flagged for a closer look

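The EIPA difference in core share had opposite signs in different classes, with no overlap of the libraries in any of the 3 classes concerned. It was -4.06 percentage points in enterocyte-like cells, 1.11 in ISC-like cells and 2.32 in proliferating-like cells (2 libraries per group). With clusters cut at a Leiden resolution of 1.2 the ISC-like difference was 0.136 points and its libraries overlapped, while it was -3.59 points in enterocyte-like and 2.32 in proliferating-like cells, without overlap. Of the core genes, 9 were higher in both +EIPA libraries in ISC-like cells and lower in both in enterocyte-like cells (among them Rpl10a, Rpl28, Rpl29, Rpl31, Rpl35, Rpl7a, Rplp1 and Rps25). For proliferating-like against enterocyte-like cells there were 32 such genes. Of all genes tested in both classes, 270 of 11450 (2.36%) and 231 of 12097 (1.91%) had these patterns. Per gene, the difference between enterocyte-like and ISC-like cells was tested with the class by treatment term, which called 0 core genes in edgeR. The difference between proliferating-like and enterocyte-like cells, and that of the shares, was not tested.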

How the results depend on the processing

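The count of core genes called for EIPA was 0 in each comparison, and it moved in 3 of the 6. With the replicate block it became 15 in ISC-like and 48 in proliferating-like cells, and the block changed no other count of core calls. For the class by treatment term it became 1 with no filter on low counts and 11 with called doublets removed, and leaving out 1 library gave 0 to 15. In the same fits 67 of 19564 and 364 of 12608 genes were called lower, and without -EIPA replicate 1 and +EIPA replicate 1, 1383 of 13206 (7 core) and 21 of 13178 (15 core). The sign of small values turned with the setting. With library sizes alone the core median became -0.0482 over all cells and -0.0680 in Goblet/Paneth-like cells. Leaving out 1 library in turn gave -0.00669 to 0.0317 for that Goblet/Paneth-like median. Over all cells it gave log2 values of -0.0976 to 0.0125 for Rpl11, -0.110 to 0.0520 for Rpl10, -0.0936 to 0.0378 for Rps7 and -0.0569 to 0.00407 for Rpl13. In ISC-like cells it gave -0.0833 to 0.0587 for Rps7, which was 0.0384 with 30 principal components. In Goblet/Paneth-like cells it gave -0.130 to 0.00968 for Rpl10, -0.116 to 0.00699 for Rps7 and -0.126 to 0.0207 for Rps18. Class shares under other cell sets and clusterings were added after seeing the data. The EIPA difference in share became -1.26 points in EEC-like cells of 8000 to 16000 UMIs, and with called doublets removed it became -0.216 in EEC-like cells and -0.0691 in tuft-like cells. The causes were not tested. Of 390 alternatives over 30 gene values, 11 reversed the sign and 10 passed the adjusted p, each of the 10 with the replicate block. With 2 libraries per group an exact test of a share cannot go below p = 0.33, and the single -Dox and +Dox libraries have no replicate check.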
